A study of Homo sapiens with 32 samples.

Results

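HIF1A-null Caco-2 cells were compared with empty vector control cells in 2D culture, without the HoxBan system and without bacteria. The 6 libraries were chosen by their labels: 3 with genotype cl.21 and treatment 2D (libraries 1, 2 and 31) and 3 with genotype e.v. and treatment 2D (libraries 23, 26 and 32), of 32 libraries in the series. The label cl.21 was taken as the HIF1A-null line and e.v. as the empty vector line. Caco-2 is a human colon adenocarcinoma line used as a model of intestinal epithelial cells. Both lines had received a lentiviral inducible Cas9 under neomycin selection and then a lentiviral guide vector under puromycin selection, which carried a guide against HIF1A in the null line and no guide in the control line. The null line carries the label of a single clone, picked at low density after selection; the sources used here do not say whether the control line was cloned too. A difference between 1 clone and its control can come from the edit or from the clone, and with 1 clone these cannot be told apart. WT Caco-2 cells without either vector were also sequenced in 2D (4 libraries), and both lines were sequenced in HoxBan monoculture (3 libraries each), where cells on a coverslip face an agar medium, here without bacteria. These served as points of comparison only.

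HIF1 is a transcription factor whose α subunit, HIF1α, is encoded by HIF1A. In cells with enough oxygen, prolyl hydroxylases encoded by EGLN1, EGLN2 and EGLN3 modify HIF1α, and the VHL protein then marks it for degradation. When oxygen falls, HIF1α accumulates and binds hypoxia response elements in genes for glycolysis, mitophagy, collagen modification and angiogenesis. In the intestinal epithelium this pathway is known for its part in barrier function, and IL18, a cytokine of epithelial defence, was the gene of interest of the study.

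The null libraries held 5545980 to 6686797 counts and the empty vector libraries 4747081 to 5779808. Mitochondrial genes took 4.49% to 15.3% of the counts in null cells and 5.58% to 17.1% in empty vector cells, and 1 library of each line, null library 1 and empty vector library 26, stood above the others of its line. The 10 epithelial markers, EPCAM, CDH1, VIL1 and CDX2 among them, summed to 3594 to 4271 CPM (counts per 1000000 counts of a library) in null and 4095 to 4655 CPM in empty vector libraries. Of these, 0 passed the test between the lines in edgeR and in DESeq2 (1 at an unadjusted p under 0.05). Over all genes edgeR called 1.00%, so 0 of 10 says little. Of the 10, 8 were below 0 on the log2 scale and 2 did not overlap in the lower direction (20.0%, against 10.5% of all genes). Of 12 immune cell markers, 10 were under 1 CPM in both lines, PTPRC and CD3E among these, and their sum was 13.7 to 26.7 CPM in null and 33.6 to 50.8 CPM in empty vector cells, most of it LYZ and CD14. LYZ, which is also a Paneth cell marker, averaged 14.1 CPM in null and 33.7 CPM in empty vector cells (log2 fold change -1.25, adjusted p = 0.0877 in edgeR) and was called by DESeq2. Of 18 goblet, Paneth, enteroendocrine and stem cell markers 13 were under 1 CPM in both lines, with sums of 68.8 to 87.2 and 95.6 to 110 CPM, and of 14 fibroblast and endothelial markers 8 were, with sums of 72.2 to 80.5 and 63.5 to 127 CPM. The part of these markers in the differences below was not tested.

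HIF1A (ENSG00000100644, GRCh38 chr14:61695513-61748259, plus strand) was lower in the null cells, although its RNA was present in all libraries. Its level was 90.4, 82.8 and 87.3 CPM in null libraries 1, 2 and 31, and 155, 180 and 148 CPM in empty vector libraries 23, 26 and 32. The groups did not overlap, and the 4 WT libraries averaged 146 ± 15.1 CPM (SD, n = 4), near the empty vector cells. The fitted log2 fold change was -0.89 ± 0.19 (SE; adjusted p = 0.00972, edgeR quasi-likelihood test). The call was lost without null library 2 (adjusted p = 0.0700) and without empty vector library 26 (adjusted p = 0.0815). It was also lost without null library 1 and empty vector library 26 together (adjusted p = 0.197). The change stayed between -0.95 and -0.80 in all 15 alternatives. The reads come from the 3′ end of the transcript, so this level does not check the edit itself. Over the 28 libraries, the genes most like HIF1A by Pearson correlation on the log2 scale were CXADR (0.898), DLC1 (0.883) and TRAPPC10 (0.872). These 3 were named after their values were seen, since the rule asked for more than 0.9; the libraries come from 3 lines and 3 cultures, and the values are a description.

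Among the genes that control or carry the HIF response, HIF1A, the edited gene, was the 1 of 14 tested members past the threshold. That is 7.14% of the list, against 0.467% of all genes called lower, and it says little about the other members. Of the 14, 11 were below 0 on the log2 scale, with a median of -0.07. In 4 the lines did not overlap in the lower direction (28.6%, against 10.5% of all genes). SIAH2, a ubiquitin ligase that targets the prolyl hydroxylases, and EGLN1 were below the empty vector level in every null library but their adjusted p-values were 0.271 and 0.298, with log2 fold changes of -0.53 and -0.49. EGLN3 was under 1 CPM in all 6 libraries. The HIF1 score, the HIF1A level divided by the summed levels of EGLN1, EGLN2, EGLN3, VHL and HIF1AN, was 0.530, 0.484 and 0.554 in null cells and 0.785, 0.995 and 0.874 in empty vector cells. The mean difference was -0.362, with no overlap between the lines. An exact two-sided permutation test of 3 against 3 libraries gave p = 0.1, the smallest value this design allows.

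HIF1 target genes outside glycolysis lay lower in the null line as a group, and 1 of them passed the test. Of 44 members tested, 35 were below 0 on the log2 scale, the median difference was -0.38, and the median over all 12849 genes was -0.0008. PLOD2, a lysyl hydroxylase of collagen, passed the threshold, 2.27% of the list, against a background of 0.467% of all genes tested that were called lower. PLOD2 was already known from an earlier reading of these data, so its call does not test the list. In 22 of the 44, all 3 null libraries lay below all 3 empty vector libraries, a state that 10.5% of all genes tested were in. No member was called higher. A lower median was not particular to this list. Among lists described below, it was -0.34 for matrix and adhesion, -0.35 for coagulation and plasma proteins and -0.43 for metallothioneins and zinc. Lists such as the respiratory chain (0.14) and cell cycle (0.06) had medians above 0.

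PLOD2 stood at 30.9, 28.6 and 15.0 CPM in null cells and at 109, 115 and 126 CPM in empty vector cells. Every null library was far below every control, with a log2 fold change of -2.23 ± 0.51 (SE, adjusted p = 0.0249). With any 1 of the 6 libraries left out, the change was -2.41 to -1.97 and the adjusted p 0.0582 to 0.169. P4HA1, a prolyl hydroxylase of collagen, measured 127, 115 and 116 CPM in null and 249, 259 and 279 CPM in empty vector cells. Its replicates were close and did not overlap between lines, yet the adjusted p was 0.136 (log2 fold change -1.14 ± 0.34). In the fits of 6 and of 10 libraries, P4HA1 had adjusted p-values of 0.000178 and 0.0158. BNIP3, a mitophagy receptor, was added after its values were seen; it measured 14.2, 15.4 and 10.0 CPM against 51.6, 31.3 and 57.1 CPM (log2 fold change -1.82, adjusted p = 0.236). TMEM45A, a membrane protein, was at 0.152, 0.382 and 0.617 CPM against 1.64, 4.67 and 3.02 CPM (adjusted p = 0.16). RAB20, a small GTPase, was above the controls in every null library, with 39.8, 36.2 and 41.8 CPM against 25.4, 23.0 and 26.0 CPM (adjusted p = 0.132).

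Genes of glucose uptake and glycolysis had a smaller median difference in the same direction. Of 29 tested, 22 were below 0, the median was -0.27, and 12 did not overlap in the lower direction (41.4%, against 10.5% of all genes). PDK1, whose kinase inhibits pyruvate dehydrogenase, was the 1 that passed the test (3.45%, against 0.467%). It was already known from an earlier reading of these data, so its call does not test the list. PDK1 was at 16.6, 11.4 and 10.8 CPM in null and 60.2, 33.5 and 60.0 CPM in empty vector cells, a log2 fold change of -1.98 ± 0.47 (SE, adjusted p = 0.0293). It lost the call without null library 1, 2 or 31 or empty vector library 23 or 32 (adjusted p 0.0661 to 0.163). LDHA, lactate dehydrogenase A, measured 476, 392 and 383 CPM against 802, 639 and 885 CPM (log2 fold change -0.90, adjusted p = 0.167), PFKL, the liver-type phosphofructokinase, had a change of -0.74 (adjusted p = 0.0744), and HK2, hexokinase 2, one of -1.02 (adjusted p = 0.24). PFKL passed in DESeq2 (0.0313), with the mitochondrial covariate (0.0487) and in the fit of 6 libraries (0.038), in which LDHA (0.00575) and HK2 (0.0169) passed too. PGK1, phosphoglycerate kinase, was at 411, 355 and 406 CPM in null and 565, 470 and 560 CPM in empty vector cells, with a change of -0.44 ± 0.28 (adjusted p = 0.753).

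The counts for both lists differed between fits. In the fit of all 28 libraries the coefficient of variation was 0.201, and in a fit of the 6 libraries alone, which also kept fewer genes (12101), it was 0.135. That second fit called 11 HIF1 targets and 6 glycolysis genes lower, with 1.69% of all its genes called lower and 1.52% higher, and no gene named here changed sign in it. Without null library 1 and empty vector library 26 together, the 28-library fit called 0 of either list. Against WT cells in 2D, the median of the HIF1 targets was -0.998 for null minus WT and -0.54 for empty vector minus WT, 2 values that share the WT libraries, and the summed level of the 50 listed targets was 2297 to 5264 CPM in WT, 2382 to 2686 CPM in empty vector and 1699 to 1860 CPM in null libraries. The WT range, with WT library 5 at its top, overlapped that of the empty vector libraries and lay above that of the null libraries.

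**Figure D1:**
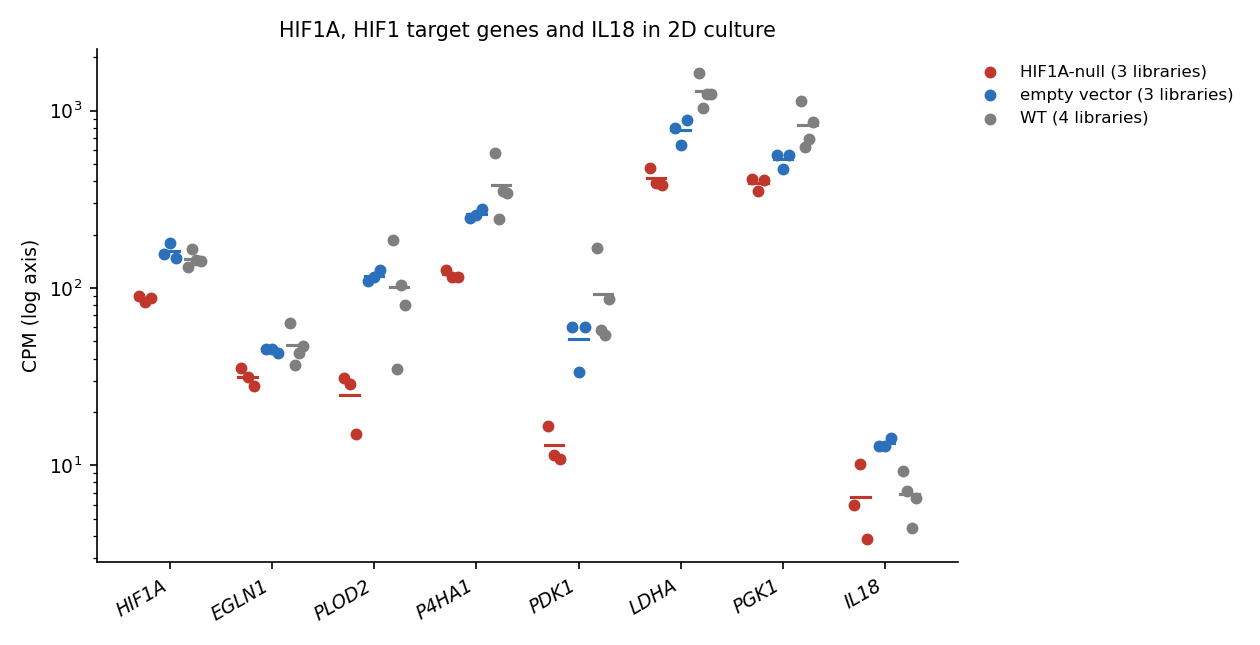
Level of HIF1A, 6 genes regulated by HIF1 and IL18 in each library in 2D, in CPM on a log axis, with the mean of each line as a bar. The 3 null libraries lie below the 3 empty vector libraries for each gene, and WT libraries spread widely for PLOD2 and PDK1.

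Promoters of HIF1 targets were searched for the core of the hypoxia response element, ACGTG or GCGTG on either strand, in the 250 bases before the gene start in RefSeq (GRCh38.p14). Of 34 targets with a promoter in that table, 28 held it (82.4%), compared with 58.1% of the promoters of 9815 genes tested and 43.1% of all 27305. For glycolysis genes the share was 14 of 26 (53.8%). PLOD2, which passed the test, and LDHA, a long-studied target, show how the cores lie; they are written in capitals, and adjoining capitals can hold a core on each strand. The window of PDK1 held no core. A match describes letters and was not tested as a site.
PLOD2 (chr3:146161185-146161434, minus strand): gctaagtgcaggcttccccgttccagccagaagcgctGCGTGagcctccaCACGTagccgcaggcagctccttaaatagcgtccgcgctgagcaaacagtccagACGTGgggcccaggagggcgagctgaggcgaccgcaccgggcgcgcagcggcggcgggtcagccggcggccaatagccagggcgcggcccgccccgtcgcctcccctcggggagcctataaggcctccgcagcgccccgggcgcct
LDHA (chr11:18394313-18394562, plus strand): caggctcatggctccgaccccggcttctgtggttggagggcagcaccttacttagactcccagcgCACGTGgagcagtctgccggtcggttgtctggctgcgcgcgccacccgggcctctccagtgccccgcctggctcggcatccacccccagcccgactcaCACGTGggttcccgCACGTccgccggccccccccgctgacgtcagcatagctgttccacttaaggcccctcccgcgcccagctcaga

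Of the interferon-stimulated genes tested, 5 were lower in the null line and 0 higher. These genes encode antiviral and antigen-presenting proteins and are switched on after interferon binds its receptor. Of 44 tested, 38 were below 0, the median was -0.77, and 28 did not overlap in the lower direction (63.6%, against 10.5% of all genes). The 5 that passed the test were MX1, IFI27, PLSCR1, IFIH1 and OAS1 (11.4% of the list, against 0.467% of all genes). None passed in the higher direction. MX1, IFI27 and PLSCR1 were already known from an earlier reading of these data, so this share does not test the list.

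MX1, a GTPase that blocks viral replication, was at 0.457, 0.127 and 0 CPM in null and 23.2, 24.0 and 9.38 CPM in empty vector cells (log2 fold change -6.45 ± 0.91, adjusted p = 0.000143). IFI27 was at 3.96, 6.49 and 3.09 CPM against 20.3, 76.1 and 33.0 CPM (-3.23 ± 0.58, adjusted p = 0.00239). For both genes the lines did not overlap, but the empty vector cells varied widely, and library 26 was the highest for each. PLSCR1, a phospholipid scramblase, was at 47.9, 44.6 and 48.1 CPM against 87.4, 98.8 and 77.3 CPM (-0.91 ± 0.20, adjusted p = 0.0143). IFIH1, a sensor of double-stranded RNA, changed by -1.44 (adjusted p = 0.0189) and OAS1, a synthetase of the RNase L pathway, by -1.36 (adjusted p = 0.0347). OAS1 lost the call with any 1 of the 6 libraries left out (adjusted p 0.0507 to 0.205). PLSCR1 lost it for every library but empty vector library 32 (0.0549 to 0.111), and IFIH1 without null library 1 or 31 or empty vector library 23 or 26 (0.0695 to 0.157). Without null library 1 and empty vector library 26 together MX1 passed and the other 4 did not.

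In WT cells MX1 averaged 1.67 ± 0.434 CPM, above the null and below the empty vector libraries, and IFI27 3.12 ± 1.96 CPM (SD, n = 4) in WT cells in 2D. Over the list, the median was 0.25 for null minus WT, with 1 gene called higher (background 0.677%) and 0 lower (background 0.786%), and 1.01 for empty vector minus WT, with 17 called higher (background 0.809%). These comparisons share libraries with each other and with the one between the lines. Summed over the 60 listed genes, the level was 1408 to 1508 CPM in null, 1353 to 1430 CPM in WT and 1821 to 2477 CPM in empty vector libraries. Of the receptor genes, named after their values were seen, IFNAR1 was at 42.5, 39.4 and 37.5 CPM in null and 56.2, 58.6 and 51.1 CPM in empty vector cells (adjusted p = 0.282), and IFNAR2 and IFNGR2 had changes of -0.14 and -0.11.

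The interferon-stimulated response element was searched as GAAANNGAAA, where N is any base, on either strand in the same promoter windows. It was found for 20 of 36 listed genes (55.6%), compared with 2.17% of the promoters of genes tested and 3.07% of all. Of the 5 called genes, IFI27, IFIH1 and PLSCR1 held it, shown in capitals below, and the windows of MX1 and OAS1 did not hold this spelling. The OAS1 window does hold ggaaacgaaacc, with a single base between the repeats, which the search does not count. The same letters stand unmarked in the PLSCR1 window. Only the first listed start of each gene was searched, so a missing match does not show that a gene lacks the element.
IFI27 (chr14:94110486-94110735, plus strand): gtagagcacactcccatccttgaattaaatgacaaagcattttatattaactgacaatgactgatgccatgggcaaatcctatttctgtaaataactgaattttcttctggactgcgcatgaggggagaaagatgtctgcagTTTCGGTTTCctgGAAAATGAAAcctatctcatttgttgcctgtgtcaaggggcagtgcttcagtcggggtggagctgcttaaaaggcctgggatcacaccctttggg
IFIH1 (chr2:162318685-162318934, minus strand): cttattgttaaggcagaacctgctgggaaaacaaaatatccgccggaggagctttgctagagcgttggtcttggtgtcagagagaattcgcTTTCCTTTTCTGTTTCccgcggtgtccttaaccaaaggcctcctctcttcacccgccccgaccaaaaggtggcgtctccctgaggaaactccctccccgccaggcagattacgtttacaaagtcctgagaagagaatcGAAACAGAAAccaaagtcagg
PLSCR1 (chr3:146544608-146544857, minus strand): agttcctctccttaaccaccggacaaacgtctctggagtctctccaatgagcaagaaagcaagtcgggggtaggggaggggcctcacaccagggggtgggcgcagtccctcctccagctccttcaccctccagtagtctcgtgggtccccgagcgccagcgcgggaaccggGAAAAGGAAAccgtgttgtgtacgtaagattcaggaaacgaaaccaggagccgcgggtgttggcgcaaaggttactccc

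**Figure D2:**
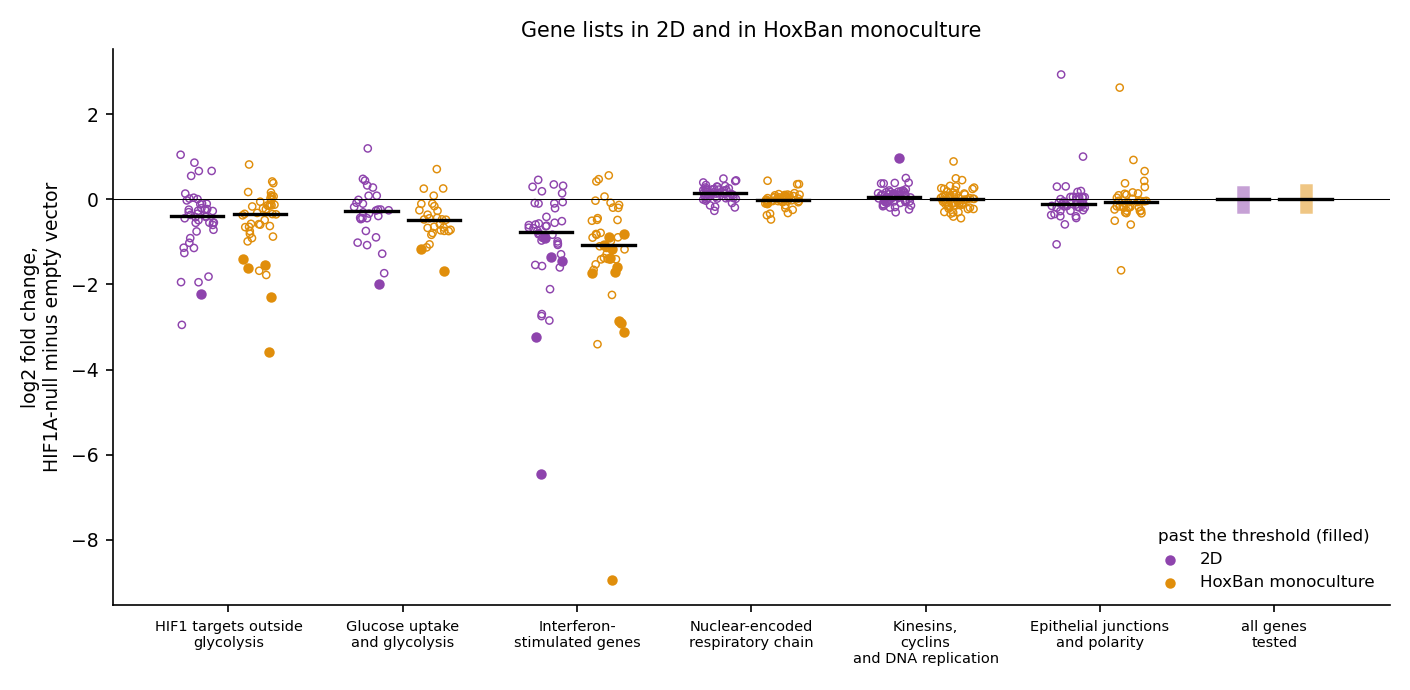
Log2 fold change of HIF1A-null minus empty vector cells for each member of 6 gene lists, in 2D and in HoxBan monoculture; filled points passed the threshold, black lines are medians, and the shaded bars on the right span the middle 50% of all genes tested. The medians of HIF1 targets, glycolysis and interferon-stimulated genes lie below 0 in both cultures, and those of the respiratory chain, cell cycle and junction lists lie between -0.12 and 0.14.

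IL18 was at 5.95, 10.2 and 3.86 CPM in null and 12.8, 12.8 and 14.2 CPM in empty vector cells. The null libraries all lay below the controls, but they varied among themselves, and the log2 fold change of -0.98 ± 0.31 did not pass the test (adjusted p = 0.197). It passed when null library 2 was left out (-1.43, adjusted p = 0.0495) and in edgeR's exact test (adjusted p = 0.019). WT cells averaged 6.86 ± 2.00 CPM (SD, n = 4), close to the null line. Of the 6 tested genes of IL18, the inflammasome and gasdermins 0 were called by edgeR or DESeq2, and 1, IL18, had an unadjusted p under 0.05. Over all genes edgeR called 1.00%, so 0 of 6 says little about the list. CASP4, an inflammatory caspase, had a change of -0.40 (adjusted p = 0.642) and GSDMD, gasdermin D, one of -0.47 (adjusted p = 0.703).

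Over all genes, 69 were higher (0.537%) and 60 lower (0.467%) in the null cells, 1.00% of 12849 together, and 1122 had an unadjusted p under 0.05. Of the 129 called, 126 are protein-coding, 128 did not overlap between the lines, and the median size of the change was 1.65 on the log2 scale. Changes of at most 2-fold made up 10 of the higher and 10 of the lower genes. The count varied with the fit, from 27 higher and 21 lower without null library 1 and empty vector library 26 together, 34 higher and 44 lower without empty vector library 23 and 47 higher and 33 lower without null library 1 to 343 and 365 in edgeR's exact test on the 6 libraries.

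**Figure D3:**
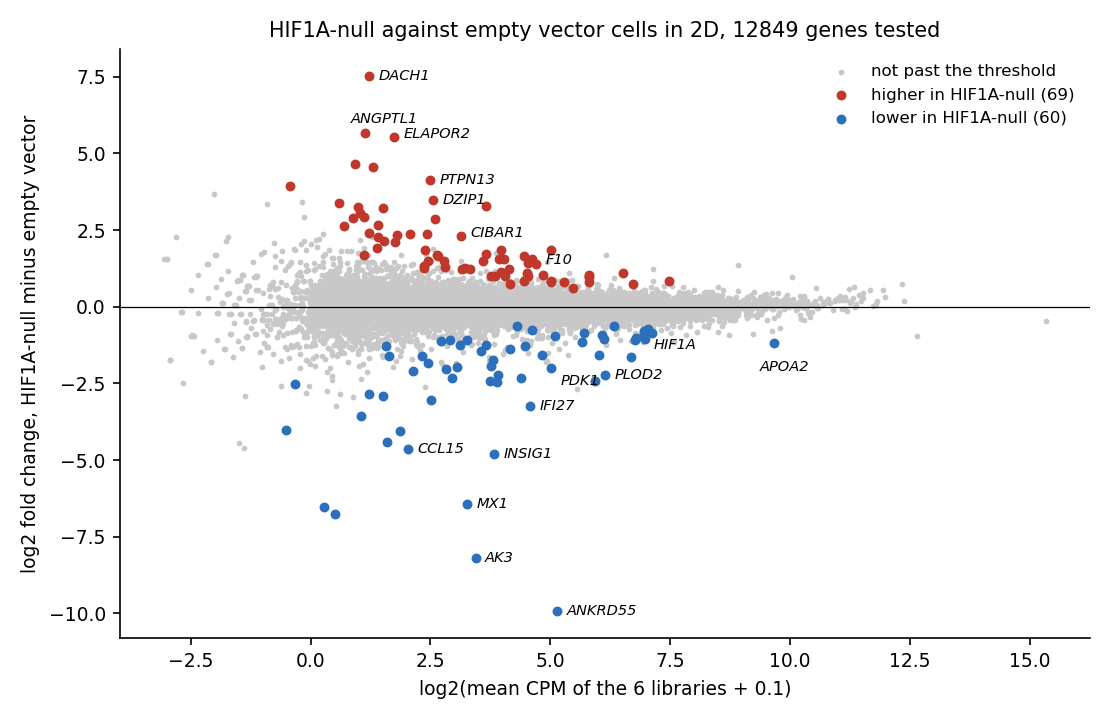
Log2 fold change of HIF1A-null minus empty vector cells in 2D against the mean level of the 6 libraries, log2(CPM + 0.1), for 12849 genes. The 69 higher and 60 lower genes are coloured, and ANKRD55 and AK3 lie lowest.

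The largest differences were of genes read in 1 line and near absent from the other. AK3, the mitochondrial GTP:AMP phosphotransferase (GRCh38 chr9:4709559-4742043), was at 0, 0 and 0.154 CPM in null and 23.9, 18.3 and 22.1 CPM in empty vector cells. The null line held 1 count of it in all and the empty vector line 373, a ratio of 447 with a 95% counting interval of 79.7 to 17694. WT cells averaged 37.4 ± 3.15 CPM (SD, n = 4), so the gene was read in both other lines. Its 7 tested neighbours whose starts lie within 1 Mb did not pass the test, with log2 fold changes from -1.30 for GLIS3 to 0.57 for JAK2. Of the 15 adenylate and nucleotide kinases tested, AK3 was the 1 called (6.67%, against 0.467% of all genes called lower). It was already known from an earlier reading of these data.

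ANKRD55, an ankyrin repeat protein (GRCh38 chr5:56099678-56233359), was ordered differently across the 3 lines. It was at 0, 0 and 0.154 CPM in null, at 65.3, 77.1 and 68.9 CPM in empty vector and at 0.0928 ± 0.107 CPM (SD, n = 4) in WT cells. The null and WT lines were both at the limit of detection and the empty vector line stood alone, with 1232 counts to 1 in the null line, a ratio of 1476 (95% counting interval 264 to 58335). INSIG1, which holds the SREBP activator of cholesterol synthesis in the endoplasmic reticulum, was at 0.610, 0.890 and 1.39 CPM in null, 22.4, 31.5 and 27.8 CPM in empty vector and 116 ± 25.5 CPM in WT cells (log2 fold change -4.80 ± 0.40, adjusted p = 1.59e-08). The order was WT, empty vector, null, without overlap between neighbours. INSIG1, also known from an earlier reading of these data, was the 1 called gene of 28 of cholesterol synthesis and its control. That is 3.57%, against 0.467% of all genes called lower, and the median of the list was -0.03.

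Of the other lower genes with the smallest adjusted p, KLK6, a secreted serine protease, was at 5.49, 5.98 and 4.01 CPM in null and 25.7, 23.0 and 24.8 CPM in empty vector cells (-2.24, adjusted p = 2.02e-05). TIMP1, an inhibitor of metalloproteinases, was at 12.2, 14.0 and 11.9 CPM against 34.9, 28.0 and 30.7 CPM (-1.29, adjusted p = 9.18e-05). CCL15, a chemokine, was at 0.152, 0.636 and 0 CPM against 7.48, 7.00 and 8.55 CPM (-4.64, adjusted p = 8.34e-05). In these genes the 3 replicates of each line lay close together. They were picked by a small adjusted p and no overlap between the lines, so this follows in part from the choice. ROBO1, a receptor for Slit guidance proteins (-3.05), PCDH7, a protocadherin (-2.32), and NFIA, a transcription factor (-2.41), had adjusted p-values of 0.000163, 0.000182 and 0.000297; ROBO1 and PCDH7 were also low in WT cells, at 0.842 and 6.52 CPM.

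The higher genes with the smallest adjusted p included ELAPOR2, CIBAR1, RAB31, PTPN13, ELOVL4, DZIP1, F10, FADS2 and CYBRD1. ELAPOR2 was at 6.40, 6.23 and 6.48 CPM in null and 0, 0 and 0.335 CPM in empty vector cells, 133 counts to 2 (ratio 55.5, 95% counting interval 15.1 to 463), with WT cells between at 1.46 CPM. CIBAR1, a ciliary protein, was at 14.3, 13.0 and 15.9 CPM against 2.56, 3.17 and 3.02 CPM (2.29, adjusted p = 2.09e-06). PTPN13, a tyrosine phosphatase, was at 16.3, 11.3 and 3.86 CPM against 0.548, 0.666 and 0.503 CPM (4.14, adjusted p = 8.34e-05), with null library 31 well below the others of its line. No overlap between the lines was a condition for naming these genes, so it is not a result. RAB31, a GTPase of membrane traffic, was at 18.0, 20.9 and 18.8 CPM against 4.38, 6.66 and 6.37 CPM (1.72, adjusted p = 8.34e-05), and DZIP1, another protein of the cilium base, at 10.4, 11.4 and 9.88 CPM against 0.730, 1.67 and 0.335 CPM (3.50, adjusted p = 0.000562). The remaining 4 of these rose by 1.22 (FADS2) to 2.35 (ELOVL4) on the log2 scale. The higher and lower genes named here by their adjusted p kept their call with any 1 library left out.

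**Figure D4:**
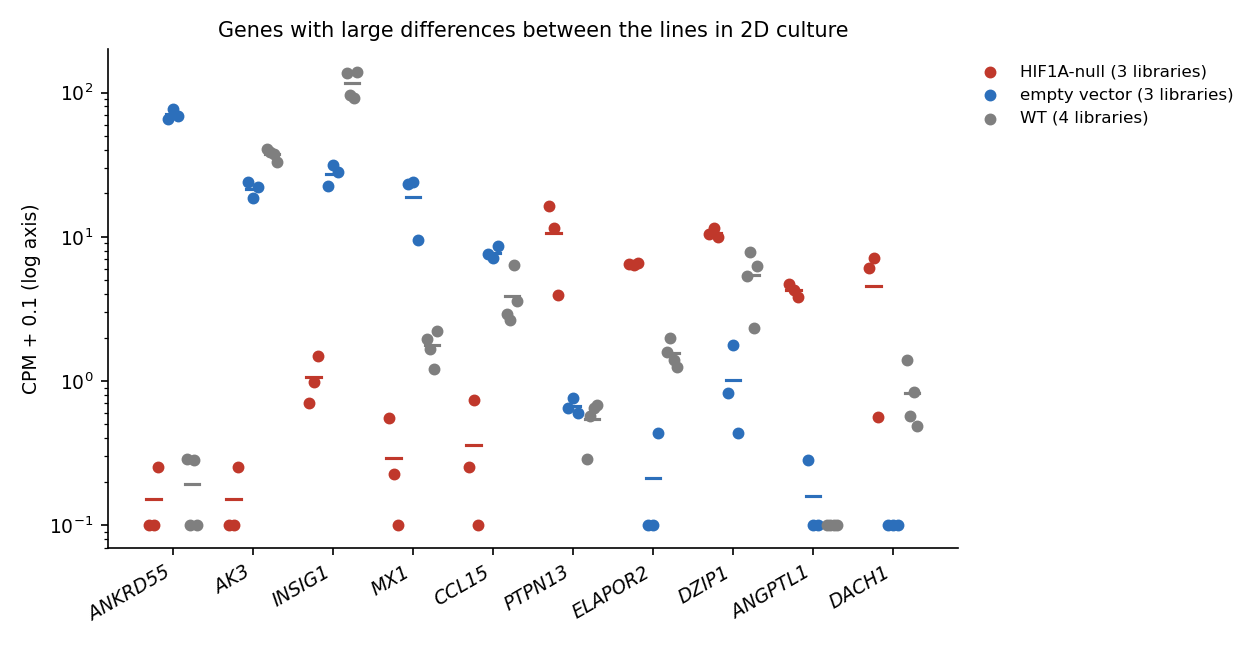
Level of 10 genes with large differences in each library in 2D, as CPM + 0.1 on a log axis, with the mean of each line as a bar. WT cells side with the empty vector line for AK3, with the null line for ANKRD55, and lie above both for INSIG1.

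Counting genes with at most 3 counts over 1 line and a mean of at least 1 CPM in the other gave 5 that were near absent from null cells and 8 near absent from empty vector cells. The 5, all called, were ANKRD55, AK3, ATF7IP2, CACNA1E and ZNF311. ATF7IP2 and CACNA1E had 0 counts in null cells and 47 and 39 in empty vector cells, so they were at least 18.8-fold and 15.6-fold lower, taking 3 counts over the line as the floor; ATF7IP2 lost its call without null library 1, 2 or 31 or empty vector library 26 or 32 (adjusted p 0.0592 to 0.162). Of the 8, 6 were called: ELAPOR2, SRSF12, DACH1, ANGPTL1, ARL11 and GLIPR2. DACH1, a developmental transcription factor, had 0 counts in empty vector cells and 97 in null cells, at least 27.0-fold higher, and its level of 5.95, 7.00 and 0.463 CPM in null cells was low in library 31. Without null library 1 and empty vector library 26 together DACH1 lost its call (adjusted p = 0.126). ANGPTL1, of the angiopoietin-like family, had 87 counts in null cells, with 1 count in empty vector and 0 in WT libraries. Of 20 splicing factors, SRSF12, an SR-type factor known from an earlier reading of these data, was the 1 called (4.56, adjusted p = 0.000123). That is 5.00% of the list, against 0.537% of all genes called higher. All but ELAPOR2 were named after their values were seen or through a list, and GLIPR2 lost its call without null library 1 or empty vector library 23 or 32 (0.0504 to 0.0887).

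Of the fatty acid and apolipoprotein lists, edgeR called 4 genes, and over all genes it called 0.537% higher and 0.467% lower. FADS2, the desaturase of polyunsaturated fatty acid synthesis, was at 14.0, 13.2 and 14.2 CPM in null and 6.39, 5.66 and 5.70 CPM in empty vector cells (1.22 ± 0.21, adjusted p = 0.00161), and both lines were below WT cells at 49.4 CPM. It was the 1 gene of 17 of fatty acid synthesis called by edgeR, DESeq2 called 3 (over all genes 0.833% were called higher and 0.677% lower by DESeq2), and 6 of the 17 did not overlap in the higher direction, against 10.7% of all genes. SCD5, a stearoyl-CoA desaturase, was at 49.0, 48.1 and 37.5 CPM against 6.94, 18.2 and 23.3 CPM (1.47, adjusted p = 0.0531). SCD5 passed in DESeq2 (0.0154) and without empty vector library 32 (adjusted p = 0.0429). Of 26 genes of fatty acid oxidation and ketogenesis, CPT1A, which admits fatty acids to the mitochondrion, was higher (1.28, adjusted p = 0.034) and DECR1, a dienoyl-CoA reductase, lower (-0.76, adjusted p = 0.0247). CPT1A lost its call without null library 1 or 2 or any empty vector library (0.0554 to 0.398), and DECR1 without null library 1 or 31 or empty vector library 32 (0.135 to 0.266). APOA2, an apolipoprotein of HDL, was at 400, 666 and 427 CPM against 1006, 1102 and 1252 CPM (-1.17, adjusted p = 0.0189), the 1 called by edgeR of 20 in its list (2 by DESeq2), and lost the call without null library 1 or 31 or empty vector library 26 or 32 (0.0589 to 0.159); PLTP, a phospholipid transfer protein, had a change of 0.85 (adjusted p = 0.0701; 0.0242 in DESeq2).

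Of 40 junction and polarity genes 0 passed in edgeR and in DESeq2, with 6 at an unadjusted p under 0.05. Over all genes edgeR called 0.537% higher and 0.467% lower, so 0 calls in 40 says little about the list. Of the 40, 26 were below 0 and 12 did not overlap in the lower direction (30.0%, against 10.5% of all genes). The smallest adjusted p was that of DSC3, a desmosomal cadherin near the detection limit (2.93, adjusted p = 0.0701), which passed without null library 31 (adjusted p = 0.0243). Among 33 genes of enterocyte differentiation 1 was called, SLC2A2, the basolateral glucose transporter GLUT2, at 4.73, 5.72 and 3.09 CPM in null and 16.8, 36.6 and 21.1 CPM in empty vector cells (-2.45, adjusted p = 0.0115). WT cells were at 2.56 CPM, close to the null line. The call was lost without null library 1 or 31 or empty vector library 26 (0.0621 to 0.111). Among 37 matrix and adhesion genes, 3 were lower, KLK6, TIMP1 and TGM2, the cross-linking transglutaminase (-0.95, adjusted p = 0.0138). NRP2, a co-receptor for VEGF and semaphorins, was the 1 higher (1.02, adjusted p = 0.0469). These are 8.11% and 2.70% of the list, and over all genes 0.467% were called lower and 0.537% higher. The median of the list was -0.34, and 12 of the 37 did not overlap in the lower direction (32.4%, against 10.5% of all genes). At an unadjusted p under 0.05 there were 14. KLK6, TGM2 and NRP2 were already known from an earlier reading of these data, so their calls do not test the list. TGM2 lost its call without any null library or empty vector library 26 (0.0503 to 0.105) and NRP2 without null library 2 or 31 or empty vector library 23 or 32 (0.188 to 0.305). VIM, vimentin, was lower from a level near the detection limit, 0.305, 0.127 and 0.154 CPM against 1.28, 1.67 and 0.670 CPM (-2.50, adjusted p = 0.0308), and lost its call without any library but empty vector library 32 (0.0607 to 0.210).

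Of the growth, stress, coagulation and iron lists, each had 0 or 1 gene called by edgeR. Over all genes 0.537% were called higher and 0.467% lower, so 0 calls in a list of this size says little about it. The lists with 1 call had 1.79% (kinesins, cyclins and DNA replication), 3.57% (stress responses), 4.76% (coagulation) and 9.09% (iron) of their genes called higher. Of 56 genes of kinesins, cyclins and DNA replication the 1 called was CCND2, cyclin D2, at 90.4, 68.9 and 61.9 CPM in null and 40.2, 39.8 and 33.9 CPM in empty vector cells (0.96 ± 0.18, adjusted p = 0.00333), with WT cells at 80.8 CPM. CCND2 lost its call without null library 1 and empty vector library 26 together (adjusted p = 0.131). The median of the list of kinesins, cyclins and DNA replication was 0.06. Of 28 genes of the integrated stress and unfolded protein responses the 1 called was CHAC1, a glutathione-degrading enzyme (1.5, adjusted p = 0.0191), which lost the call without null library 1 or empty vector library 26 or 32 (0.0761 to 0.162). In the lists of immediate early genes (30), NRF2 and antioxidant genes (29), metallothioneins and zinc (11) and NF-kB targets (15) 0 were called by edgeR or DESeq2, with 2, 6, 1 and 1 at an unadjusted p under 0.05. The medians of these lists lay between -0.09 and 0.10 except that of metallothioneins and zinc, which was -0.43. The coagulation list also holds other plasma proteins, TTR, ALB, AGT and AMBP among them. Of its 21 tested genes F10, coagulation factor X, was the 1 called, at 33.9, 44.8 and 34.3 CPM against 12.1, 16.5 and 14.6 CPM (1.39 ± 0.22, adjusted p = 0.000581). F10 was already known from an earlier reading of these data, so its call does not test the list. The median of that list was -0.35, 13 of the 21 were below 0, 7 did not overlap in the lower direction (33.3%, against 10.5% of all genes) and 8 had an unadjusted p under 0.05. TFPI, the tissue factor pathway inhibitor, was at 20.1, 23.7 and 12.8 CPM in null and 30.3, 48.8 and 34.9 CPM in empty vector cells (adjusted p = 0.229). Of 11 genes of the intestinal HIF2 response and of iron handling, CYBRD1, the duodenal ferric reductase, was the 1 called. It was at 10.1, 8.90 and 9.26 CPM against 2.19, 2.50 and 4.02 CPM (1.68 ± 0.29, adjusted p = 0.00172).

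Nuclear genes of the respiratory chain had mostly positive differences and 0 calls in edgeR, which called 1.00% of all genes. Of 49 tested, 41 were above 0 with a median of 0.14, and 16 did not overlap in the higher direction, against a background of 10.7% of genes tested. COX5A, a subunit of complex IV, had the smallest adjusted p at 347, 329 and 395 CPM against 247, 245 and 274 CPM (0.48, adjusted p = 0.136). COX5A was the 1 called in DESeq2 (adjusted p = 0.0433), and 3 had an unadjusted p under 0.05 in edgeR. The same list had a median of -0.01 in HoxBan monoculture. Of the 15 mitochondrially encoded genes 0 were called by edgeR or DESeq2 (1 at an unadjusted p under 0.05), with a median of 0.37 in 2D and -0.39 in monoculture, and their level moved with the high mitochondrial share of null library 1 and empty vector library 26.

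The differences also followed chromosomal position. On chromosome 21, 13.5% of 126 genes tested were above 0, the median was -0.31, and 4 genes were lower (3.17%) and 0 higher. On chromosome 13 the median of 234 genes was 0.27, with 8 higher (3.42%) and 0 lower, and on chromosome 15 the median of 419 was 0.21, with 8 higher (1.91%) and 0 lower. Over all genes, 0.537% were called higher and 0.467% lower. Medians of the other chromosomes lay between -0.14 and 0.12. Against WT cells in 2D, the medians for null and for empty vector cells were 0.07 and -0.20 on chromosome 13 and 0.11 and -0.10 on chromosome 15. They were -0.32 and 0.02 on chromosome 21. On chromosome 7 they were -0.12 and -0.25, the largest shift of the empty vector line from WT. In HoxBan monoculture, from other libraries of the same lines, the medians of chromosomes 21, 13 and 15 were -0.26, 0.32 and 0.26.

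**Figure D5:**
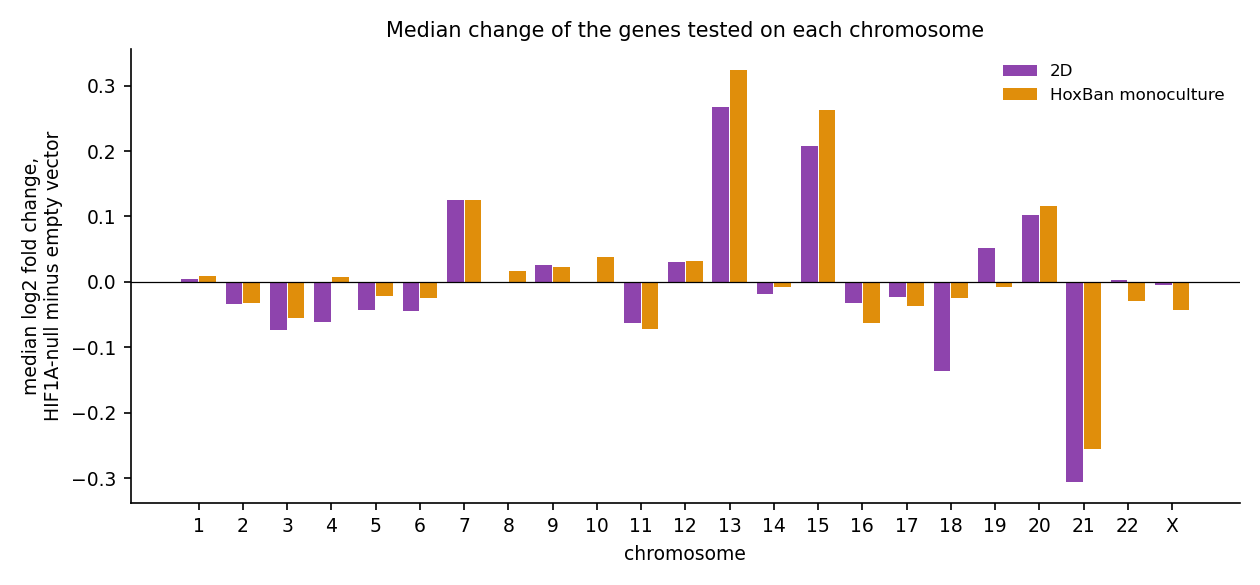
Median log2 fold change of HIF1A-null minus empty vector cells over the genes tested on each chromosome, in 2D and in HoxBan monoculture. Chromosomes 13 and 15 stand above 0 and chromosome 21 below 0 in both cultures.

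In windows of 15 Mb with at least 20 genes tested, 8 of 193 had a median of at least 0.25 in size, each with the sign it had in monoculture. They held 3.77% of the genes tested, 15.9% of the higher and 5.00% of the lower genes. The windows of chromosome 13 from 90 to 105 and from 105 to 120 Mb had medians of 0.47 and 0.63, and in them STK24, a kinase, was at 250, 228 and 205 CPM in null and 115, 134 and 130 CPM in empty vector cells. Here null cells were above WT cells by 0.32 and 0.27 and empty vector cells below them by 0.21 and 0.25 on the log2 scale. In the window of chromosome 9 from 30 to 45 Mb, 95.7% of 70 genes were above 0, with a median of 0.38 against empty vector and 0.36 against WT cells, while empty vector and WT cells differed by -0.01. The per-library medians there were 0.34 to 0.39 in null, 0.01 to 0.02 in empty vector and -0.02 to 0.03 in WT libraries, relative to the empty vector mean. In the window of chromosome 21 from 30 to 45 Mb, which holds MX1, the median of 82 genes was -0.36 against empty vector, -0.30 against WT and 0.02 for empty vector minus WT. On chromosome 12 from 0 to 15 Mb the median of 0.29 went with 0.01 for null minus WT and -0.28 for empty vector minus WT, so there the empty vector line stood apart, and CCND2, described above, lies in that window. DNA was not analysed here.

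Named after their values were seen, some called genes of chromosomes 9, 13 and 21 are given here. TUSC1, CAAP1, IFT74 and MOB3B, which lie together in the neighbouring window of chromosome 9 from 15 to 30 Mb, rose by 2.85, 1.11, 1.01 and 1.56 on the log2 scale. The median of the 28 genes tested in that window was -0.04, and 42.9% were above 0. IFT74, a protein of transport in cilia, was at 22.3, 22.8 and 21.3 CPM in null and 14.2, 9.50 and 9.22 CPM in empty vector cells (adjusted p = 0.00333). CAAP1 lost its call without empty vector library 23 (0.0582) and MOB3B without empty vector library 32 (0.0520). On chromosome 13, TFDP1, a partner of E2F factors, rose by 0.76 (adjusted p = 0.0428), RAP2A, a small GTPase, by 0.81 (adjusted p = 0.00721) and STK24 by 0.85 (adjusted p = 0.00827). TFDP1 lost its call with any 1 library left out (0.0519 to 0.259), and RAP2A and STK24 without null library 1 or empty vector library 23 (0.0504 to 0.0748). On chromosome 21, MRPS6, a mitochondrial ribosomal protein, and SLC5A3, an inositol transporter, fell by 0.72 and 1.05 (adjusted p = 0.0450 and 0.0479). Their annotated starts lie beside each other, so reads may be shared between them. PRMT2, an arginine methyltransferase, fell by 0.63 (adjusted p = 0.0375). MRPS6 and SLC5A3 lost their calls with any 1 library left out (0.0506 to 0.305) and PRMT2 without any but null library 31 (0.0842 to 0.281).

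The same lines in HoxBan monoculture gave 70 higher (0.545%) and 74 lower (0.576%) genes. Of the 69 genes higher in 2D, 35 were called higher in monoculture too, 50.7% of the 2D calls and 50.0% of the monoculture calls, and all 69 had the same sign. Of the 60 lower genes, 41 were called in both (68.3% and 55.4%), and all 60 had the same sign. The median changes of the 2 sets were 1.65 and -1.68 in 2D and 1.36 and -1.48 in monoculture. The edgeR interaction test called no gene for a genotype effect that differed between the cultures (0.00% of 12849, adjusted p under 0.05, smallest adjusted p 0.9999). In that test 180 genes had an unadjusted p under 0.05. DESeq2 called 0, with 176 under 0.05 unadjusted. With 3 libraries per group, a lack of calls does not show that the effects were equal in the cultures.

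For the genes at the centre of the comparison, levels in monoculture are set beside those in 2D. HIF1A averaged 176 ± 19.2 CPM in null and 258 ± 84.0 CPM in empty vector cells in monoculture (SD, n = 3), against 86.9 ± 3.84 and 161 ± 17.0 CPM in 2D, and its genotype effect was -0.55 there and -0.89 in 2D (difference -0.34 ± 0.26, SE, adjusted p = 1.00). PLOD2 differed by -2.29 in monoculture and -2.23 in 2D. PDK1 differed by -1.13 and -1.98 (difference -0.85 ± 0.64), LDHA by -1.17 and -0.90, and IL18 by -0.86 and -0.98. The difference for MX1 was -8.94 in monoculture and -6.45 in 2D, and for AK3 -9.98 and -8.21, both against levels near 0 in the null line. The HIF1 score was 1.48 to 1.89 in null and 1.53 to 2.81 in empty vector cells in monoculture, ranges that overlap, whereas the ranges in 2D did not.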

How the data were processed

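QuantSeq 3′ libraries of Caco-2 cells were analysed from deposited counts, which the authors made per Ensembl gene on GRCh38. Aligner, counter and strand setting: not given in the sources used here. Thus overlapping genes may share reads. The table held 60107 rows, 30677 with a count; rows without a name, after matching to a table of Ensembl identifiers and GENCODE release 29, held 0.0679% of counts. Libraries are replicates by their labels, and p-values measure the spread between them, which may be technical. Reads carry no molecular identifiers, so intervals and floors cover counting error only.

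edgeR filtering, TMM normalization and the quasi-likelihood test were applied to 28 libraries in 9 groups (12849 genes, 19 residual degrees of freedom), and the contrast of the 3 null and 3 empty vector libraries in 2D was tested two-sided with Benjamini-Hochberg adjustment over all genes at 0.05. CPM values use TMM library sizes. Gene positions came from GENCODE and promoters from RefSeq (GRCh38.p14). The 4 WT libraries with inulin, mucin or stool had no replicate and were left out. Named genes were HIF1A, PGK1, EGLN3 and IL18, the 10 higher and 10 lower with the smallest adjusted p, at least 5 CPM and no overlap, and up to 4 of each list; others are said to be chosen after their values were seen or are the called members of a list, a chromosome or a set of near-absent genes. The lists and the comparison were chosen with earlier results of these data known. An earlier reading had named 36 genes. Among them were PLOD2, PDK1, MX1, IFI27, PLSCR1, AK3, INSIG1, KLK6, TGM2, SRSF12, F10, CPT1A and NRP2. A count of called members is therefore no independent test of a list. Alternatives were DESeq2, the edgeR exact test, other normalization factors, no filter, smaller sets of libraries, a covariate for the mitochondrial share, and leaving out each library; leaving out null library 1 and empty vector library 26 together was added after the data were seen. Some items that these rules cover are not reported here. The steps were tested on simulated counts. Software was R 4.3.3, edgeR 4.0.16, DESeq2 1.42.0, matplotlib 3.10.9, scipy 1.17.1, numpy 2.4.6, pandas 2.3.3 and Python 3.11.15.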

Additional observations from a re-analysis of the deposited data

Results flagged for a closer look

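In groups of 4 libraries, the most distant one was compared with the rest by Dixon's ratio, its gap to the nearest library divided by the whole range, and chance marks about 1 group in 20. This was done for 76 genes and measures, and 7 were marked. In WT cells in 2D, WT library 5 stood above the others for HK2 (ratio 0.962; 47.3 CPM against 18.9 to 20.0 CPM), TMEM45A (0.863; 8.38 against 1.58 to 2.51 CPM) and PLSCR1 (0.894; 55.3 against 44.0 to 45.2 CPM). WT library 8 stood apart for CACNA1E (0.930) and TFDP1 (0.859), and WT library 12 for PRMT2 (0.867) and for the mitochondrial share (0.851; 14.1% against 4.94% to 6.30%). These libraries enter the spread shared by all groups and the WT levels set beside the 2 lines; they are not part of the difference between the lines.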

How the results depend on the processing

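The main counts were 69 higher and 60 lower genes, and 1 HIF1 target, 1 glycolysis gene and 5 interferon-stimulated genes lower, and other settings are given in this order. DESeq2 gave 107 higher and 87 lower genes, 1 HIF1 target, 2 glycolysis and 8 interferon-stimulated genes. No filter gave 151 higher, 167 lower, 10, 5 and 15. The 6 libraries alone gave 184, 204, 11, 6 and 13, the 10 libraries in 2D 132, 118, 5, 3 and 12, and the exact test 343, 365, 12, 9 and 23. The mitochondrial covariate gave 2 glycolysis genes. Leaving out null library 1 and empty vector library 26 together gave 27, 21, 0, 0 and 1. Leaving out 1 library gave 34 to 62 higher, 33 to 44 lower, 0 HIF1 targets, 0 to 2 glycolysis and 2 to 4 interferon-stimulated genes. The interaction had 4 genes without a filter and 0 elsewhere. The cause was not tested.

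The HIF1 score kept its direction, from -0.412 to -0.307 with 1 library left out. Of 75 named genes none changed sign in 15 alternatives. Of 53 called, 23 kept the call in every one. Leaving out a library cost 14 to 20 of these calls, and leaving out both libraries of high mitochondrial share 29. No paired analysis was made, because the labels carry only a running library number and do not say which libraries were grown together. Genes with few counts set the limit of depth: 3 counts over a line is the floor.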
